A study of Mus musculus with 20 samples.

Results

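The 7 genes described here encode 5 subunits of the phagocyte NADPH oxidase (Cybb, Cyba, Ncf1, Ncf4 and Rac2) and the intracellular superoxide dismutases (Sod1 and Sod2). They were taken from a list of symbols, matched by Entrez number, out of 36528 gene models, and all 7 passed the filter on low counts. The libraries come from MC38 tumours, grown from a transplantable mouse colon carcinoma line. Macrophages and monocytes were sorted from control tumours or from tumours treated with antibody against PD-L1, which binds the inhibitory receptor PD-1 on T cells, 7 days after treatment began. The 4 groups are control macrophages, anti-PD-L1 macrophages, control monocytes and anti-PD-L1 monocytes, with 5 libraries each. Of the mouse strain and age, the antibody's dose, the control agent and the sort gates, the labels used here say nothing. Nor do they state whether the 5 libraries of each group are separate animals or tumours. P-values therefore reflect only library-to-library spread, part of which may be technical. Every control library has a lower label number than every treated one, so treatment cannot be told apart from the order of these numbers.

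The phagocyte oxidase moves electrons from NADPH across a membrane to oxygen and so makes superoxide, which macrophages, monocytes and neutrophils use to kill microbes and which in tumours can also act on neighbouring lymphocytes. Cybb (gp91phox, the catalytic subunit) and Cyba (p22phox, its partner) form a heterodimer in the membrane. The cytosolic proteins encoded by Ncf1 (p47phox, the organizer) and Ncf4 (p40phox, which binds a lipid of phagosomes) join it on activation together with the GTPase Rac. Superoxide dismutases turn superoxide into hydrogen peroxide, Sod1 in the cytosol and Sod2 in the mitochondrial matrix.

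The libraries held 30191509 to 36514133 counts. The cell labels were checked against their markers. In control tumours 8 of 10 macrophage markers were higher in macrophages and 9 of 9 monocyte markers were lower in them. Adgre1, which encodes the F4/80 antigen, had a median of 1094 CPM (counts scaled to a common library size with TMM factors) in control macrophages and 301 CPM in control monocytes, and Ly6c2, a marker of inflammatory monocytes, had 4.58 and 876 CPM. RNA of other cells moved with treatment: the summed CPM of 18 fibroblast markers ranged from 139 to 2736 in control macrophages, from 87.2 to 470.4 in treated macrophages, from 429.9 to 4277 in control monocytes and from 86.3 to 678 in treated monocytes. None of the 18 was at 0 counts in any library. In the fits, 10 of the 18 were lower with treatment in macrophages and 13 in monocytes. Control macrophages 1, 3 and 5 and control monocytes 1, 3 and 4 had the 6 highest fibroblast levels of a continuous range, in which control monocyte 2 came next. The treatment results are given below with and without these 6 libraries, a number set by choice and not by a gap in the levels.

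Promoter sequences were taken from RefSeq (GRCm38.p6) for 5 of the 7 genes, from 250 bases before to 50 after the transcript start, and those of the 3 genes called higher in treated monocytes are shown. Capitals mark matches, on either strand, to GAGGAA, a core of sites for PU.1 and other ETS factors, or to GAAANNGAA, a core of sites for interferon regulatory factors. The windows are chrX:9469275-9469574 (minus strand) for Cybb, chr5:134229576-134229875 (minus strand) for Ncf1 and chr17:13007589-13007888 (plus strand) for Sod2. The Cybb window lies inside the annotated gene (chrX:9435252-9487766), so its transcript start is not the outer end of the gene. Only this window was read for Cybb.
Cybb: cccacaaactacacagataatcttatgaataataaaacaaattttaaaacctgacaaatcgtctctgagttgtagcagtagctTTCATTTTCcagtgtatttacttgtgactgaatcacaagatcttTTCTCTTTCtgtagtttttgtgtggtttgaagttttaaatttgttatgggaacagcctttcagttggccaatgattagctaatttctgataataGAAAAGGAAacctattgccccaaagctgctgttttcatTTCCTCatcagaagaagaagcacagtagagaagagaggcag
Ncf1: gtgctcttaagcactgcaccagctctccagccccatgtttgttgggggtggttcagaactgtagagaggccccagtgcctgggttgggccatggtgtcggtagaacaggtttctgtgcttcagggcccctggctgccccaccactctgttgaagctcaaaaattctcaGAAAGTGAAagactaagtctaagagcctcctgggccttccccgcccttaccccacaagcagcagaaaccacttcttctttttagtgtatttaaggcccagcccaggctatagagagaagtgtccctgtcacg
Sod2: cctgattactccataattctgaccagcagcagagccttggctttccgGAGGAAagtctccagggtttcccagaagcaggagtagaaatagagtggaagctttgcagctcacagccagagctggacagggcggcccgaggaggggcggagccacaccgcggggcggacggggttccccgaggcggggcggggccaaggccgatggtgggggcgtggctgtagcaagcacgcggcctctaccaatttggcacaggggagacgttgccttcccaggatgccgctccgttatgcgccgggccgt
The Cybb window held 3 matches to GAAANNGAA and 1 to GAGGAA. The Ncf1 window held 1 match to GAAANNGAA and the Sod2 window 1 to GAGGAA. Among 32851 promoter windows of the same length, 8.56% held GAAANNGAA and 28.28% held GAGGAA. The windows of Cyba and Sod1 held neither. None of the 5 held GGAAGT, another ETS core present in 23.77% of windows, or GGANTTTCC, an NF-kB core present in 1.254%. The motifs can overlap one another, and a match is a description of the letters only.

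Levels between genes were compared on the authors' length-normalized scale (nRPKM). Cyba was the most abundant of the 7 in each group, with 767 ± 160 nRPKM in control macrophages and 854 ± 178 in control monocytes (SD, n = 5). Cybb followed with 219.9 ± 27.9 and 190.1 ± 36.0 nRPKM, so that the ratio of Cyba to Cybb was 3.49 ± 0.58 in control macrophages and 4.50 ± 0.55 in control monocytes. Ncf1, Ncf4, Rac2 and Sod1 lay between 101 and 165 nRPKM on average in control tumours, and Ncf1 and Ncf4 were close to one another, with a ratio of 1.27 ± 0.09 in control macrophages and 1.03 ± 0.14 in control monocytes. Sod2 was the lowest, at 17.5 ± 2.36 nRPKM in control macrophages and 41.1 ± 11.3 in control monocytes. In control macrophages the means of Sod1 and Ncf1 lay within 1 SD of each other, as did those of Ncf4 and Rac2, and in control monocytes so did those of Ncf1, Ncf4 and Sod1. On this scale the order of the dismutases was the same in all groups, Sod1 above Sod2. The order rests on the gene lengths behind nRPKM, which are not stated. In mean CPM, which ignores length, Sod2 was above Sod1 in control monocytes (158 and 91.6) and treated monocytes (247 and 81.8). In macrophages Sod1 was above Sod2 in CPM too (98.3 and 69.6 in control, 90.1 and 89.6 in treated). The gap in nRPKM differed: the ratio of Sod1 to Sod2 was 8.48 ± 2.54 in control macrophages, 6.06 ± 1.11 in treated macrophages, 3.66 ± 1.55 in control monocytes and 2.04 ± 0.57 in treated monocytes.

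**Figure D1:**
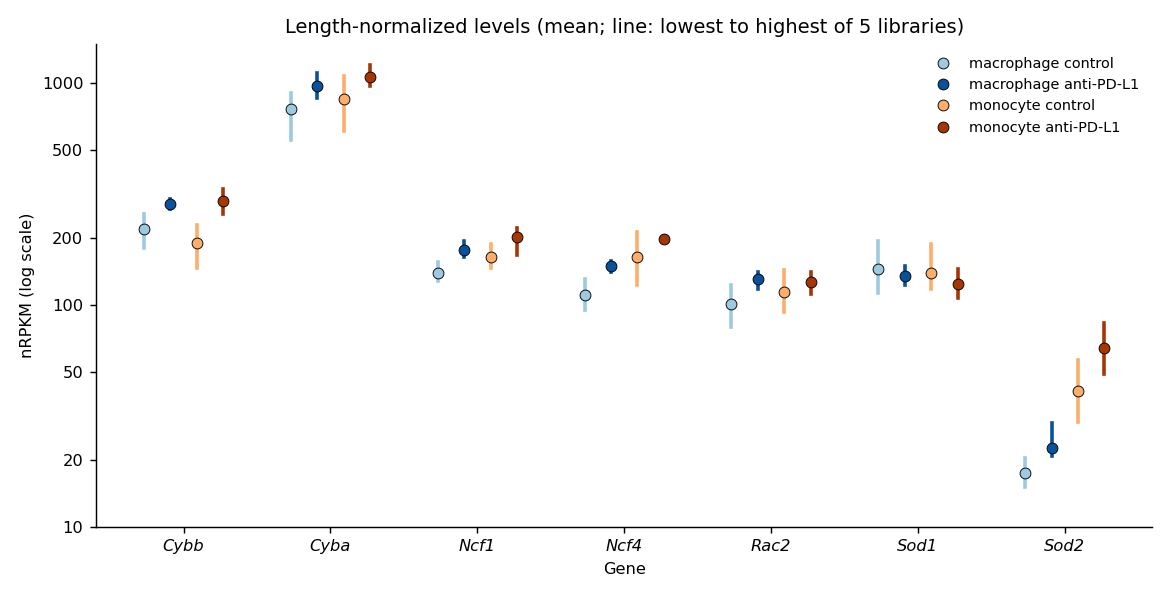
Length-normalized level (nRPKM, log axis) of each gene in the 4 groups; points are means of 5 libraries and lines run from the lowest to the highest library. Cyba lies highest and Sod2 lowest in each group, with Sod2 at 17.5 nRPKM in control macrophages and 63.8 nRPKM in treated monocytes.

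The first comparison asks how the oxidase and the dismutases differed between treated and control monocytes. Transcripts of the catalytic subunit Cybb, the organizer Ncf1 and the mitochondrial dismutase Sod2 rose, by 1.56, 1.23 and 1.56 times. Thus 3 of the 7 genes were called, all higher, against a background of 25.3% of the 15390 genes tested called in either direction and 9.92% called higher. The median log2 fold change of the 7 was 0.30, and that of all genes tested was 0.02. In bulk libraries, fewer cells of a type and less RNA per cell cannot be told apart.

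For Cybb, the control monocytes read 870, 1086, 720, 835 and 1089 CPM, and the treated ones 1409, 1258, 1608, 1477 and 1428 CPM. Every treated library lay above every control library, as for 5.09% of all genes tested in this direction, and Cybb was the only one of the 7 to do so in monocytes. The log2 fold change was 0.64 ± 0.12 (SE, n = 5 against 5; adjusted p = 0.00358, edgeR's quasi-likelihood test with Benjamini-Hochberg adjustment), the 93rd smallest p of all genes tested. Cyba, whose protein stabilizes gp91phox, had 673 ± 135 CPM in control and 851 ± 90.3 CPM in treated monocytes (SD, n = 5). The groups overlapped and the log2 difference of 0.34 ± 0.15 was not called (adjusted p = 0.104).

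Among the cytosolic subunits, Ncf1 read 485, 521, 444, 476 and 553 CPM in control monocytes and 679.8, 639, 502, 639 and 593 CPM in treated ones. The groups overlapped through treated library 3, and Ncf1 was called with a log2 fold change of 0.30 ± 0.09 (adjusted p = 0.0227). Ncf4 read 250.5, 340.1, 222.3, 277 and 374 CPM in control monocytes and 361, 348, 356, 365 and 351 CPM in treated ones. The treated values lay close together within the upper part of the control range, and the log2 difference of 0.28 ± 0.12 was not called (adjusted p = 0.0879). Rac2, the GTPase isoform of blood cells, had 350 ± 61.5 and 393 ± 36.8 CPM with overlapping groups and a log2 difference of 0.17 ± 0.12 (adjusted p = 0.342). On the strand opposite Ncf1, Gtf2ird2 shares 408 exon bases with it. Whether the counting used strand is not stated in the labels, so their reads may not be told apart. Gtf2ird2 itself had mean levels of between 10.9 and 12.97 CPM in the 4 groups, against 434 to 611 CPM for Ncf1.

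Of the dismutases, Sod2 read 142, 188, 130.5, 117 and 214 CPM in control monocytes and 243, 325, 273, 206 and 188 CPM in treated ones. The ranges overlapped between 188 and 214 CPM, and Sod2 was called with a log2 fold change of 0.64 ± 0.17 (adjusted p = 0.0122). Sod1, the cytosolic enzyme, was not called. Its means were 91.6 ± 19.7 CPM in control and 81.8 ± 8.68 CPM in treated monocytes, a log2 difference of -0.16 ± 0.14 (95% interval -0.46 to 0.13; adjusted p = 0.423).

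**Figure D2:**
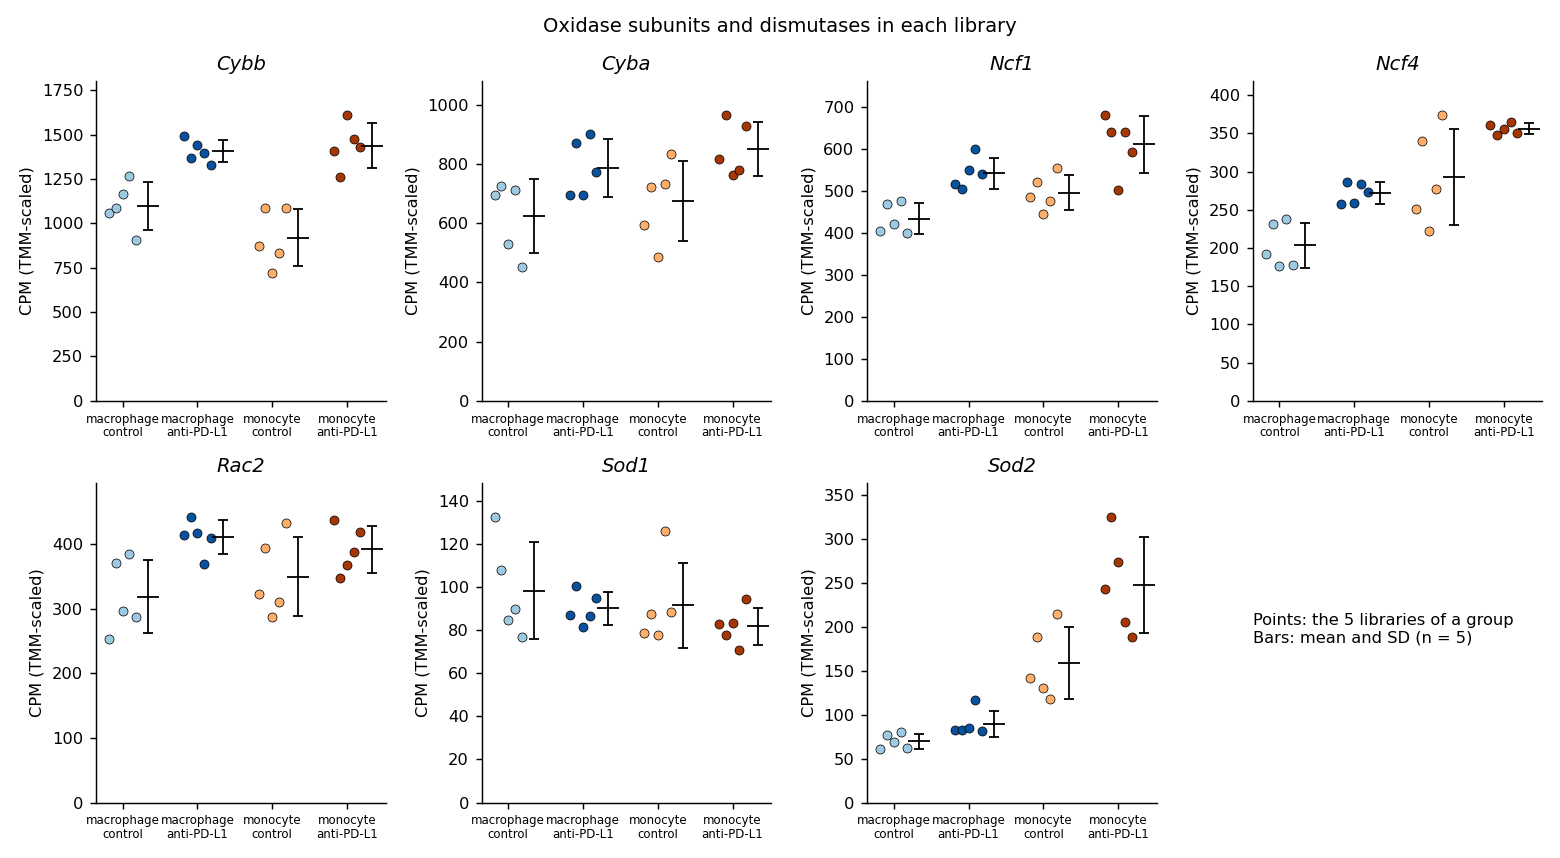
CPM (TMM-scaled, linear axes from 0) of each gene in each of the 20 libraries by group, with the mean and SD of 5 libraries beside the points. The treated Cybb values lie above all control values in both cell types, and Sod2 in monocytes ranges from 117 to 325 CPM against 60.6 to 116 CPM in macrophages.

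These calls were not made in the fits that took the fibroblast marker level into account. That level was itself lower with treatment, and the 6 libraries left out were all controls. Its mean log2 CPM was 4.92 ± 1.15 in control and 2.55 ± 1.04 in treated monocytes (SD, n = 5). Such fits therefore cannot tell treatment and fibroblast RNA apart. With that level entered as a covariate, 0 of the 7 genes and 3 of all genes tested were called. Without the 6 control libraries, 0 of the 7 and 83 of all genes were called, with 2 control monocyte libraries left. The log2 difference of Cybb was smaller, 0.48 ± 0.13 with the covariate (adjusted p = 0.16) and 0.38 ± 0.11 without the 6 libraries (adjusted p = 0.142). Sod2 had 0.30 ± 0.17 (adjusted p = 0.490) and 0.28 ± 0.19 (adjusted p = 0.573), and Ncf1 had 0.08 ± 0.09 (adjusted p = 0.792) and 0.16 ± 0.10 (adjusted p = 0.542). With only the monocyte libraries in the fit, Cybb alone of the 7 was called (13.9% of all genes tested there). Leaving out 1 library at a time, Cybb and Sod2 were called in all 20 fits. The call of Ncf1 was lost without treated monocyte 1, 2 or 4 or control monocyte 3 or 4 (highest adjusted p 0.0805). Without control monocyte 5, 5 of the 7 genes were called, which added Cyba and Ncf4. Over these 20 fits the number of all genes called also moved, from 1883 to 5359 against 3900 with all libraries.

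The second comparison sets treated against control macrophages. Ncf1 rose by 1.25 times and was the 1 gene of 7 called, with a background of 4.65% of genes called in either direction and 1.73% called higher. The other 4 oxidase subunits and Sod2 had log2 differences of 0.34 to 0.42, of which none was called, and Ncf4 missed the threshold narrowly. The median log2 fold change of the 7 was 0.36, against -0.01 for all genes tested. Cybb, Ncf1, Ncf4 and Sod2 were higher in every treated than in every control library, as were 4.11% of all genes tested.

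Cybb read 1055, 1089, 1166, 1268 and 908 CPM in control macrophages and 1492, 1370, 1442, 1397 and 1331 CPM in treated ones. The groups did not overlap, yet the log2 difference of 0.36 ± 0.12 was not called (95% interval 0.12 to 0.60; adjusted p = 0.0669). Cyba had 623 ± 124 and 786 ± 97.0 CPM, with overlapping groups and a log2 difference of 0.34 ± 0.15 (adjusted p = 0.179).

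Ncf1 read 404, 469, 420, 476 and 398 CPM in control macrophages and 515, 505, 549, 599.6 and 541 CPM in treated ones, a log2 fold change of 0.32 ± 0.09 (adjusted p = 0.0488). Ncf4 read 192, 232, 177, 238 and 178 CPM in control and 257, 287, 259, 284 and 273 CPM in treated macrophages, a log2 difference of 0.42 ± 0.12 (adjusted p = 0.05005). Neither gene's groups overlapped, and the adjusted p values lay just on either side of the threshold. Rac2 had 319 ± 56.7 and 411 ± 26.1 CPM, and the log2 difference of 0.37 ± 0.12 was not called (adjusted p = 0.0755).

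Sod2 read 60.6, 76.8, 68.6, 79.9 and 62.1 CPM in control macrophages and 82.3, 83.1, 85.0, 116 and 81.3 CPM in treated ones. Treated library 4 was well above the other treated libraries, which lay just over the control range, and the log2 difference of 0.36 ± 0.17 was not called (adjusted p = 0.195). Sod1 had 98.3 ± 22.3 and 90.1 ± 7.63 CPM, a log2 difference of -0.13 ± 0.14 (adjusted p = 0.640).

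Which genes were called in macrophages changed with the test. DESeq2 called Cybb, Ncf1, Ncf4 and Rac2 (12.2% of all genes), limma-voom called none, and limma-voom with neighbouring label numbers as a replicate block called Ncf4 (adjusted p = 0.0462) and not Ncf1 (adjusted p = 0.0589), with 1.58% of all genes called. With the neutrophil marker level as covariate Cybb and Ncf4 were called (4.1% of all genes), and with the macrophage libraries alone in the fit Cybb, Ncf1 and Ncf4 (8.3%). The call of Ncf1 was lost in 12 of 20 fits that left out 1 library, with adjusted p up to 0.121 without control macrophage 5. Those fits were without control macrophage 1, 3 or 5, treated macrophage 1, 3, 4 or 5, control monocyte 1 or 2, or treated monocyte 1, 4 or 5. Without control macrophage 4 or control monocyte 5, 4 of the 7 genes were called (Cybb, Ncf1, Ncf4 and Rac2). Without control macrophage 2 (Ncf1, Ncf4 and Rac2) or control monocyte 3 (Cybb, Ncf1 and Ncf4) 3 were. Without control monocyte 4 or treated monocyte 2 or 3 both Ncf1 and Ncf4 were. The number of all genes called moved as well, from 14 to 1928 over the 20 fits against 715 with all libraries, with 1928 without control macrophage 4. The fibroblast marker level was lower with treatment here too, with a mean log2 CPM of 4.15 ± 1.58 in control and 1.88 ± 0.82 in treated macrophages (SD, n = 5). Fits that use it cannot tell the 2 apart. With this level as covariate, 0 of the 7 were called and Ncf1 had a log2 difference of 0.11 ± 0.09 (adjusted p = 0.905). Without the 6 control libraries, 0 of the 7 were called and Ncf1 had 0.20 ± 0.10 (adjusted p = 0.498).

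**Figure D3:**
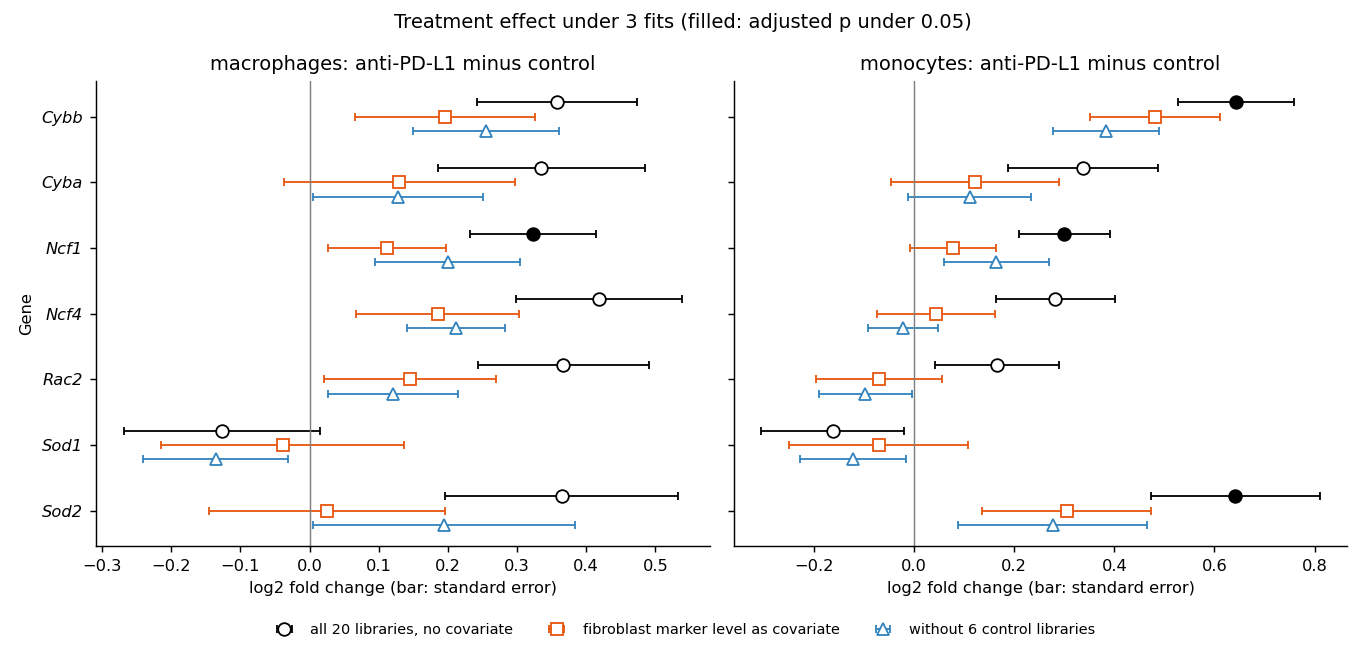
Log2 fold change of anti-PD-L1 against control in macrophages (left) and monocytes (right), with standard errors, from the fit to all 20 libraries, with the fibroblast marker level as covariate and without 6 control libraries; filled symbols have an adjusted p under 0.05. Filled symbols appear for Ncf1 in both cell types and for Cybb and Sod2 in monocytes in the first fit, and none in the other fits.

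Within groups, the oxidase subunits and Sod2 were lower in libraries with more fibroblast RNA. After removal of group means, Pearson's r of log2 CPM with the mean log2 CPM of the fibroblast markers over the 20 libraries was -0.85 for Ncf1, -0.68 for Ncf4, -0.64 for Rac2, -0.63 for Sod2, -0.52 for Cybb and -0.49 for Cyba. Sod1 had an r of 0.15. These values are a description, and both measures of a library share its depth and scaling.

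**Figure D4:**
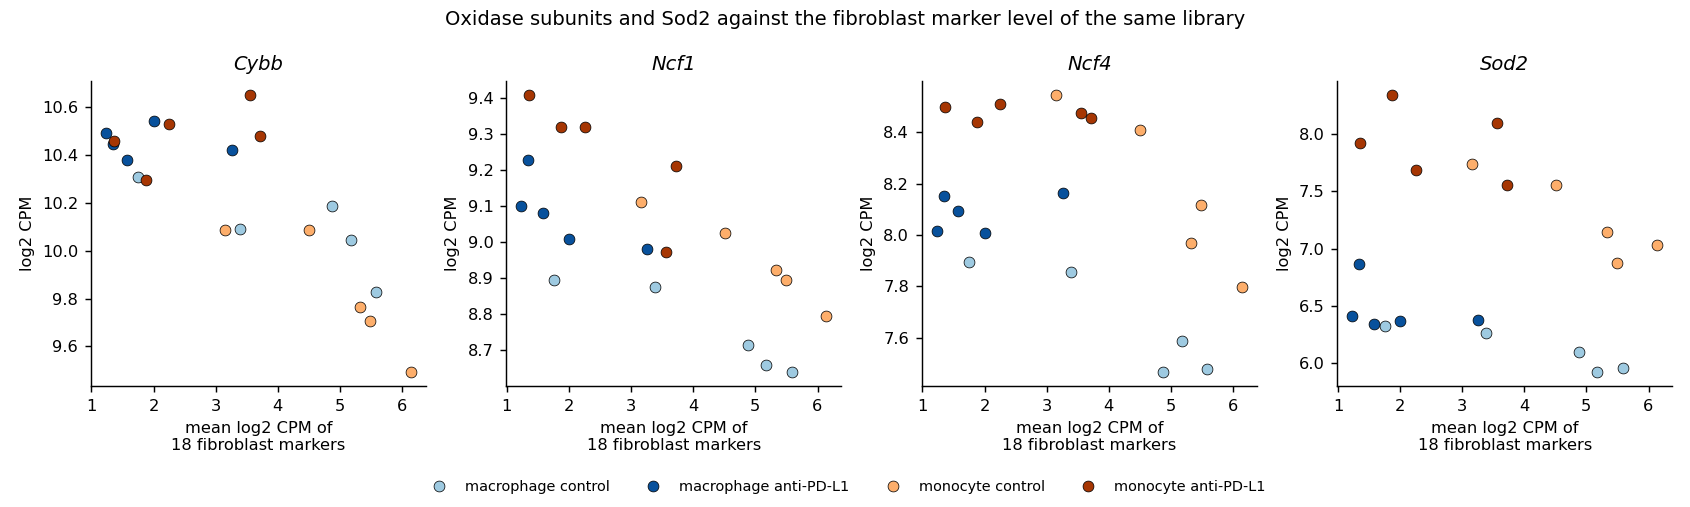
Log2 CPM of Cybb, Ncf1, Ncf4 and Sod2 against the mean log2 CPM of 18 fibroblast markers in the same library; each point is 1 of 20 libraries, coloured by group. Control libraries spread to the right, and Ncf1 falls with the marker level inside the groups (r = -0.85 after removal of group means).

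The difference between the treatment effects in the 2 cell types was tested directly. No member was called, and neither was any other of the 15390 genes (0% by edgeR, with 980 genes at an unadjusted p under 0.05). Over all genes, DESeq2 called 7 and limma-voom with the block called 8, none of them a member. The log2 difference of Cybb, macrophage effect minus monocyte effect, was -0.28 ± 0.16 (95% interval -0.63 to 0.06; adjusted p = 0.840). That of Sod2 was -0.28 ± 0.24 (95% interval -0.77 to 0.22; adjusted p = 0.929). The widest positive value was that of Rac2, 0.20 ± 0.17 (95% interval -0.16 to 0.57; adjusted p = 0.930). The lack of calls does not show that the cell types acted alike.

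The next comparison sets macrophages against monocytes, with control and treated tumours taken separately; it shares its libraries with the treatment comparisons. Sod2 and Ncf4 were lower in macrophages in both. In control tumours these were 2 of 7 genes called, with a background of 44.1% called in either direction and 20% called lower. In treated tumours they were again the 2 called, with backgrounds of 53.9% and 25.7%. The 2 of 7 was thus under the share of all genes called in either direction and slightly over the share called lower.

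Sod2 had 69.6 ± 8.61 CPM in control macrophages and 158 ± 41.1 CPM in control monocytes, a log2 fold change of -1.19 ± 0.17 (adjusted p = 1.46e-05). In treated tumours the levels were 89.6 ± 15.0 and 247 ± 54.6 CPM, a log2 fold change of -1.46 ± 0.17 (adjusted p = 8.81e-07). The macrophage values lay under all monocyte values of the same treatment. Ncf4 had 204 ± 29.4 and 293 ± 62.8 CPM in control tumours (log2 fold change -0.52 ± 0.12; adjusted p = 0.00142) and 272 ± 13.9 and 356 ± 7.15 CPM in treated tumours (-0.39 ± 0.12; adjusted p = 0.00972). Its groups overlapped in control and not in treated tumours. Without overlap and lower in macrophages were thus 1 of the 7 genes in control tumours and 2 in treated ones, against 10.8% and 22% of all genes tested.

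The membrane subunits did not pass this test. Cybb was 0.25 ± 0.12 higher on the log2 scale in control macrophages than in control monocytes (adjusted p = 0.0814), and the difference was -0.03 ± 0.12 in treated tumours (adjusted p = 0.846). Cyba differed by -0.11 ± 0.15 in both (adjusted p = 0.580 in control and 0.549 in treated tumours). For Cybb the order of the group means was thus treated monocytes (1436 CPM), treated macrophages (1406), control macrophages (1097) and control monocytes (920). The treated groups overlapped one another, and so did the control groups. Ncf1 differed by -0.19 ± 0.09 in control (adjusted p = 0.0920) and by -0.17 ± 0.09 in treated tumours (adjusted p = 0.120). Rac2 and Sod1 had adjusted p values between 0.414 and 0.677 in these comparisons.

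Neighbouring label numbers held 1 macrophage and 1 monocyte library each, and these pairs deviated together. In control tumours Cybb was higher in the macrophage library in 5 of 5 pairs, by 0.26 ± 0.16 (SD) on the log2 scale. Its pair differences ran from 0.0043, close to none, to 0.423. Ncf1 was lower in 5 of 5, by a mean of -0.19 ± 0.04. With the pairs as a replicate block in limma-voom, these 2 genes were called as well (adjusted p = 0.00551 for Cybb and 0.00803 for Ncf1), which brings the count in control tumours to 4 of 7, where that fit called 60.2% of all genes. In treated tumours Ncf1 was lower in 4 of 5 pairs and was called with the block (adjusted p = 0.0193). This brings the count to 3, where that fit called 66.3% of all genes. Cybb was higher in 3 of 5 treated pairs, by 0.0145, 0.0332 and 0.150, and the others differed by -0.102 and -0.232. Sod2 and Ncf4 were lower in the macrophage library in all 10 pairs.

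**Figure D5:**
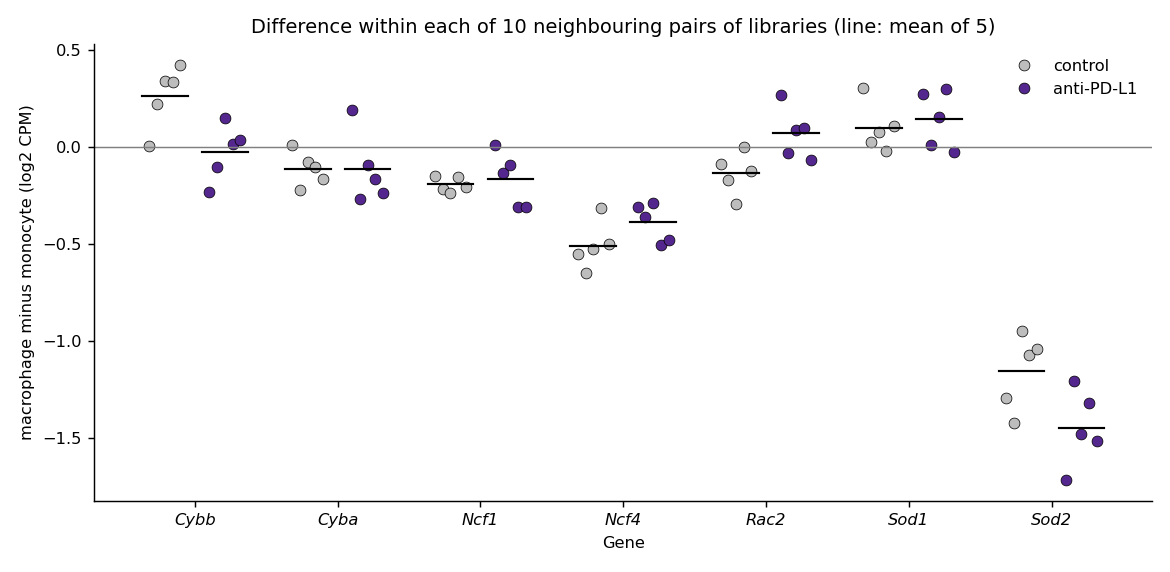
Macrophage minus monocyte difference in log2 CPM for each gene in the 5 control and 5 anti-PD-L1 pairs of neighbouring label numbers; lines are means of 5 pairs. All 10 values of Sod2 lie between -1.72 and -0.95 and all 10 of Ncf4 lie under 0. Cybb lies above 0 in 5 of 5 control pairs (from 0.0043 to 0.423) and 3 of 5 treated pairs (0.0145, 0.0332 and 0.150).

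Neutrophils carry much of the same oxidase, so their markers were read beside the cell type results. Of 12 markers, 7 passed the filter, and all 7 were lower in macrophages in both treatments. The summed CPM ranged from 50.7 to 88.3 in control macrophages, from 80.0 to 125 in treated macrophages, from 195 to 424 in control monocytes and from 265 to 583 in treated monocytes. In macrophages most of this sum was the CPM of 1 gene, Csf3r, the receptor of G-CSF. Csf3r ranged from 48.3 to 86.6 CPM in control and from 77.3 to 124 CPM in treated macrophages. It had a median of 59.5 CPM in control macrophages and 138 CPM in control monocytes, and was also called higher with treatment in both cell types. The defining neutrophil surface marker Ly6g did not exceed 0.809 CPM in any library. The granule gene Camp was at 0 in all 10 macrophage libraries and reached 1.09 CPM in control monocytes. Ltf, Ngp, Elane and Mpo did not exceed 5.82 CPM in any library. Other markers of the list were higher in monocytes: S100a9 reached 181 CPM and Mmp8 48.9 CPM in control ones. In treated monocytes S100a8 reached 80.2, Cxcr2 36.0 and Retnlg 17.3 CPM. The neutrophil marker level, a mean log2 CPM, was -2.20 ± 0.22 in control macrophages and 1.58 ± 0.95 in control monocytes (SD, n = 5). These groups did not overlap, so a fit with this level as covariate cannot tell cell type and neutrophil RNA apart. In that fit Sod2 and Ncf4 had log2 differences of -1.60 ± 0.41 (adjusted p = 0.00901) and -0.92 ± 0.28 (adjusted p = 0.0256) in control tumours. With the fibroblast level as covariate the values were -1.28 ± 0.14 (adjusted p = 4.03e-07) and -0.60 ± 0.10 (adjusted p = 4.53e-05).

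The partners and activators of the oxidase form a list of 17 genes, all tested. In monocytes 10 rose and 0 fell, against 9.92% of all genes called higher, and in macrophages 1 rose and 0 fell, against 1.73%. Cybc1, whose product is needed for the maturation of gp91phox, was called in both, with log2 fold changes of 0.47 ± 0.12 in macrophages (adjusted p = 0.0407) and 0.39 ± 0.12 in monocytes (adjusted p = 0.0215). Prkcd, a kinase that phosphorylates p47phox, rose by 0.55 ± 0.16 in monocytes, and Hvcn1, the proton channel that balances the oxidase's charge, by 0.54 ± 0.16. Rac1, the widely expressed isoform, had log2 differences of 0.06 ± 0.10 and 0.14 ± 0.10 and was called in neither. With the fibroblast covariate, or without the 6 control libraries, 0 of the 17 were called in either cell type. The 1 call in macrophages was also lost without control macrophage 1 or 5, treated macrophage 1, 3 or 4, or control monocyte 1. The count in monocytes also fell to 1 with the monocyte libraries alone in the fit, without control monocyte 3 and without control monocyte 4, to 2 without treated monocyte 2 or 4, and to 5 without control or treated monocyte 1.

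Between cell types in control tumours, 3 of the 17 were higher and 6 lower in macrophages, against 24% and 20% of all genes. Without control monocyte 5 the counts were 5 and 5. Fits without 1 library called 6000 to 7363 of all genes in this comparison, against 6784 with all libraries. Hvcn1 was higher by 1.56 ± 0.16 and Prkcb, another kinase of p47phox, by 0.97 ± 0.16. Prkcd was lower by a log2 fold change of -0.78 ± 0.16. Without the 6 control libraries the counts between cell types were 3 higher and 8 lower. Over all genes, that fit called 3762 higher and 3330 lower of 15480 in control tumours.

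Of 9 genes of other NADPH oxidases, 3 passed the filter. None was called with treatment, against 4.65% of all genes in macrophages and 25.3% in monocytes. Nox1 (0.76 ± 0.16) and its organizer Noxo1 (0.82 ± 0.22) were higher in control macrophages than in control monocytes. These were 2 of the 3, against 24% of all genes called higher and 44.1% called in either direction. Nox4, a constitutive oxidase of other tissues, was below the filter, with at most 0.197 CPM.

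Peroxide and superoxide removal was read from 18 genes. With treatment 0 were called in macrophages, and 1 rose and 2 fell in monocytes, against 4.65% and 25.3% of all genes called in either direction. Leaving out 1 library moved the monocyte counts to 0 to 3 higher and 1 to 4 lower. The extremes were 3 higher without control monocyte 5, 4 lower without treated monocyte 5, and 1 lower without control monocyte 3 or 4 or treated monocyte 3. In macrophages such fits called up to 1 in each direction, both without control macrophage 2 or 4 or control monocyte 4. Prdx4, a peroxiredoxin of the endoplasmic reticulum, fell by 0.77 ± 0.17 on the log2 scale (adjusted p = 0.00641), Txn2, the mitochondrial thioredoxin, fell by 0.25 ± 0.08 (adjusted p = 0.0293), and Prdx5 rose by 0.45 ± 0.16 (adjusted p = 0.0450). Cat, which encodes catalase, was not called with treatment (adjusted p = 0.0654 in macrophages and 0.0647 in monocytes) and was 0.30 ± 0.09 higher in control macrophages than monocytes (adjusted p = 0.0124). Sod3, the extracellular dismutase, was low, with means of 1.24 and 0.22 CPM in control and treated macrophages and 1.89 and 0.73 CPM in monocytes, and was called in neither (adjusted p = 0.0512 and 0.125). Between cell types in control tumours 5 of the 18 were higher and 5 lower in macrophages, against 24% and 20% of all genes, and without control macrophage 2 only 3 were higher. Gsr, which encodes glutathione reductase, was lower by a log2 fold change of -3.10 ± 0.18 (adjusted p = 1.43e-10) and Prdx6 by -1.99 ± 0.16, while Prdx4 was 0.91 ± 0.17 higher.

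The enzymes that supply NADPH and the NRF2 targets were read next. Of 8 NADPH supply genes, G6pdx, the entry enzyme of the pentose phosphate pathway, rose in monocytes by 0.47 ± 0.09 (adjusted p = 0.00369) and Me1 fell by 2.71 ± 0.78 (adjusted p = 0.0175), 2 called against 25.3% of all genes, and none was called in macrophages, against 4.65%. Of 10 genes of the NRF2 list, Nqo1 fell in monocytes by 1.18 ± 0.35 (adjusted p = 0.0201), 1 called against 25.3% of all genes. None of the 10 was called in macrophages, against 4.65%. The Nqo1 call was lost without control monocyte 3 or 4 or treated monocyte 4, and leaving out control monocyte 5 brought the supply genes that rose to 3. Between cell types in control tumours, 4 of the 8 supply genes were lower in macrophages, against 20% of all genes called lower and 44.1% called in either direction: Slc2a1, a glucose transporter (-0.95 ± 0.15), Taldo1 (-0.68 ± 0.13), Idh1 (-0.64 ± 0.12) and Pgd (-0.28 ± 0.11). Of the NRF2 list the cystine transporter Slc7a11 (-1.93 ± 0.35) and Txnrd1 (-0.63 ± 0.17) were lower. Gclc (0.27 ± 0.09) was higher, a call that 12 of the 20 fits without 1 library did not make. These were 2 lower and 1 higher of the 10, against 20% and 24% of all genes. With the fibroblast covariate, or without the 6 control libraries, none of the removal, supply or NRF2 genes was called with treatment in either cell type. With the covariate Me1 had log2 differences of -0.14 ± 0.39 in monocytes and 0.45 ± 0.39 in macrophages, neither called.

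The factors known to bind the Cybb promoter form a list of 5 ETS and interferon regulatory factors, the families whose core letters are marked in its sequence above. In monocytes 4 of them rose with treatment: Irf1 by 0.77 ± 0.17, Irf8 by 0.67 ± 0.17, Irf2 by 0.51 ± 0.10 and Elf1 by 0.34 ± 0.09 on the log2 scale, with adjusted p values of 0.00598, 0.0102, 0.00466 and 0.0137. The share of all genes called higher was 9.92%. None was called in macrophages with all libraries. Leaving out 1 library brought up to 3 there (3 without control macrophage 4 or control monocyte 4, 2 without control macrophage 2, control monocyte 5 or treated monocyte 3). Such fits called 14 to 1928 of all genes in macrophages, against 715 with all libraries. Between cell types in control tumours 3 of the 5 were lower in macrophages, against 20% of all genes called lower and 44.1% called in either direction. These were Irf1 (-1.19 ± 0.17), Irf2 (-0.81 ± 0.10) and Spi1, which encodes PU.1 (-0.47 ± 0.16). A link between these factors and the level of Cybb was not tested. With the fibroblast covariate, or without the 6 control libraries, 0 of the 5 were called with treatment.

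Among 10133 genes with a symbol and a mean log2 CPM of at least 2, those most like each member over the 20 libraries were named by Pearson's r of log2 CPM, which includes the differences between groups. Sod2 was followed most closely, by Parp10 and Mocos (r = 0.99 each) and Hif1a (0.98). Ncf4 was followed by Arhgap9 and Rassf2 (0.97 each) and Aldh3b1 (0.97), Cyba by Rtf2 (0.96), Aup1 (0.95) and Fcgr3 (0.93), and Ncf1 by Rab5b (0.94), Cdipt (0.93) and Tifab (0.93). Cybb was followed by Slc8a1 (0.92), Gm2245 (0.90) and Sdccag8 (0.90), and Rac2 by Cib1, Cln8 and Vsir (0.89, 0.89 and 0.88). Sod1 was followed by the ribosomal protein genes Rpl26 (0.94) and Rpl13a (0.94) and by Rbx1 (0.94). Between members, r after removal of group means was 0.80 for Ncf4 with Rac2, 0.79 for Cyba with Ncf4 and 0.73 for Cybb with Ncf4. Sod1 had 0.60 with Cyba, and its r with the other 5 lay between -0.25 and 0.22. These are descriptions over libraries that share scaling and the fibroblast gradient given above.

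In RefSeq's annotation of GRCm38.p6 the genes lie at chrX:9435252-9487766 (Cybb, minus strand), chr8:122424771-122432940 (Cyba, minus), chr5:134220053-134229628 (Ncf1, minus), chr15:78244164-78262582 (Ncf4, plus), chr15:78559169-78572783 (Rac2, minus), chr16:90220762-90226333 (Sod1, plus) and chr17:13007839-13018119 (Sod2, plus). Their Entrez numbers, in the same order, are 13058, 13057, 17969, 17972, 19354, 20655 and 20656. Counts were made per gene model, so the values cover whole genes.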

How the data were processed

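RNA-seq of 20 libraries was analysed, 5 in each of 4 groups named by the labels. Per the labels' protocols, a kit for stranded total RNA was used on 0.1 ug per library, whereas the molecule label names polyA RNA. Reads were aligned with GSNAP to GRCm38, per the submitters' processing notes. Neither labels nor notes give the aligner's version, the annotation, the counter or its strand setting. Per the file headers, the deposited count is that of uniquely aligned reads per gene model, and the deposited RPKM value (nRPKM) is adjusted by a size factor. The deposited RPKM values were used to compare levels between genes and were not tested.

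Symbols came from RefSeq (GRCm38.p6), which matched 31049 of 36528 models, holding 97.97% of counts. Counts were tested as deposited in R 4.3.3 with edgeR 4.0.16: filterByExpr (15390 genes kept), TMM scaling, 1 mean per group over all 20 libraries, quasi-likelihood tests, Benjamini-Hochberg adjustment over all genes tested, and a call at an adjusted p under 0.05. Log2 CPM used a prior count of 2. In the shallowest library 3 counts, taken as the floor, are 0.0994 CPM, which covers counting error only. Replicates differed by more than sampling noise (lowest chi-square per degree of freedom 22.06). Alternatives were DESeq2 1.42.0, limma-voom (limma 3.58.1) with and without a replicate block, edgeR with RLE factors, with no filter, with the groups compared alone, with a fibroblast or neutrophil marker level as covariate, without 6 control libraries and without each library. Replicate numbers follow the order of deposit and only name libraries. The pairing was therefore taken from neighbouring label numbers: in 10 of 10 pairs the deviations from group means over 5000 genes correlated (r 0.34 to 0.80), and 9 were best matches. The labels do not say that neighbours share a tumour. The fits were also run on simulated counts with known changes. Those counts held no fibroblast gradient, cell type difference or shared deviation of pairs, so that run does not show how the calls here behave.

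The 7 members, the pathway lists and the marker lists were chosen with earlier results of these data known. Named are all members, up to 4 called genes of each pathway list with the smallest p per treatment comparison and for cell type in control, always Rac1, Cybc1, Sod3, Cat and Nox4, and the 3 genes most like each member; 1 gene that this rule names is not reported here. Counts of the pathway lists under the alternatives were added after seeing the data. Gtf2ird2, the marker genes Adgre1 and Ly6c2, the neutrophil marker genes and the overlap were named outside this rule, after their values were seen.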

Additional observations from a re-analysis of the deposited data

Results flagged for a closer look

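Each gene's CPM was tested in each group of 5 for a highest or lowest library that stood apart by more than Dixon's 95% critical value, in 52 sets; chance alone gives about 1 in 20. In 4 sets 1 library was far above the others. Sod1 in control monocyte 4 read 125.776 CPM, where the other 4 lay between 77.8 and 88.2. Sod2 in treated macrophage 4 read 116.361 CPM, where the others lay between 81.3 and 85.0. Sod3 in treated monocyte 5 read 2.05271 CPM, where the others lay between 0.129 and 0.663. Nox4 in control monocyte 1 read 0.197273 CPM, where the others lay between 0.0266 and 0.0750, all near the floor of 0.0994 CPM.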

How the results depend on the processing

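Over the 7 genes, 5 comparisons and all alternatives, 907 fold changes kept their direction and their side of the threshold, 35 gained and 31 lost a call, and 35 changed sign. The lower level of Sod2 and Ncf4 in macrophages was called under every alternative, in control and in treated tumours. Of these, the fit with the neutrophil covariate cannot tell cell type and neutrophil RNA apart. For treatment in macrophages, 1 of the 7 genes was called; the number was 4 with DESeq2, 3 with the groups compared alone, 2 with the neutrophil covariate, and 0 with no filter, limma-voom, the fibroblast covariate and without the 6 control libraries, and 0 to 4 without 1 library. Genes called there numbered 715, and 1878, 191, 243, 1193, 2 and 70 with DESeq2, limma-voom, the replicate block, the groups alone, the fibroblast covariate and without the 6 libraries, and 14 to 1928 without 1 library (14 without treated macrophage 4 or control macrophage 5, 1928 without control macrophage 4). For monocytes, 3 of the 7 were called, 1 with the groups alone, 0 with the fibroblast covariate, 0 without the 6 libraries, and 2 to 5 without 1 library. Genes called there numbered 3900, and 2019, 3 and 83 in those fits and 1883 to 5359 without 1 library (1883 without control monocyte 3). For the difference between cell types, 0 genes were called, 7 with DESeq2, 8 with the replicate block and 0 to 41 without 1 library (41 without control monocyte 5). Between cell types, the replicate block called 4 of the 7 genes in control tumours in place of 2, and the neutrophil covariate gave 3558 called genes in control and 5039 in treated tumours, in place of 6784 and 8293. The block changed no other count of the 7 by over 1.5 times.

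Some values changed sign, most of them but not all near 0. The Cyba treatment difference (-0.0016) was 0.0157 with DESeq2, 0.0157 with RLE factors, 0.000868 with no filter, 0.00836 with the fibroblast covariate, 0.00112 with the neutrophil covariate, 0.0167 without the 6 libraries and from -0.068 to 0.13 without 1 library. Without the 6 libraries, Ncf4 (from 0.28 to -0.0221) and Rac2 (from 0.17 to -0.0973) in monocytes and the Sod1 difference (-0.0144) changed sign, as did Rac2 in monocytes with the fibroblast covariate (-0.0708) and Rac2 between treated cell types with the fibroblast (-0.000405) and neutrophil (-0.362) covariates. Cybb between control cell types went from 0.25 to -0.257 with the neutrophil covariate. Without 1 library, Cybb between treated cell types ranged from -0.048 to 0.050, Sod1 between control cell types from -0.036 to 0.21, Sod1 in macrophages from -0.16 to 0.036 and the Sod1 difference from -0.042 to 0.20. The cause of these shifts was not tested. The comparison of groups alone has no value for the treatment difference, which needs all 4 groups.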
